A study of Mus musculus with 22 samples.

Results

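The comparison described here is that of the peritoneal cavity (PC) with the spleen in mice that carried NFKBIE-ko leukemia. It rests on 8 of the 22 RNA-seq samples of the study, 4 from the PC and 4 from the spleen, chosen by their titles. The leukemia was the murine line TCL1-355 TKO, a B-cell line established from the Eμ-TCL1 transgenic model of chronic lymphocytic leukemia, in which a TCL1 transgene is driven in B cells. NFKBIE-ko cells had been edited in exon 2 of Nfkbie by nucleofection of a Cas9 ribonucleoprotein. Edited and NFKBIE-wt cells were grown apart for 21 days in a pair of C57BL/6 mice, 1 genotype per mouse, and then injected into the peritoneal cavity of C57BL/6 recipients aged 2 to 3 months, 5 per genotype. Cells were recovered on day 10 and were not purified, so each library holds RNA of leukemic and host cells together, and fewer cells of a type and less RNA per cell cannot be told apart. The 8 samples thus share the line, the editing, the propagation in 1 mouse, the route of injection and the day of recovery, and differ in the site. The labels do not say which PC and spleen samples came from the same mouse. They give blood as the tissue of every sample, and the description of NFKBIE-ko samples begins by naming wild-type cells, so the title and the source were used. For flow cytometry in the same study, spleens were ground and their red cells lysed, whereas PC cells were obtained by lavage without further treatment. Whether the RNA samples were prepared in the same way is not stated, and the site and its way of recovery cannot be told apart here.

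IκBε, the product of Nfkbie, holds NF-κB dimers in the cytoplasm until a signal leads to its degradation, and NF-κB then turns on genes of survival, inflammation and its own inhibitors. The peritoneal cavity is home to B-1 lymphocytes and to large resident macrophages, whose identity depends on the transcription factor Gata6 and on retinoic acid. The spleen holds blood-filled red pulp with iron-recycling macrophages and, in mice, erythroid precursors, beside a white pulp of T and B lymphocytes in which B cells receive antigen and T-cell signals.

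The sequence of the cr-RNA is shown because it defines the knockout. It matched the mouse genome (GRCm39) at 1 place with an NGG motif, chr17:45869436-45869455 on the forward strand, inside exon 2 of the canonical transcript of Nfkbie, in coding sequence. In the first line the bases in capitals are the motif next to the target (PAM) as read from the genome, and in the second the target itself stands in capitals within chr17:45869416-45869478.
NFKBIE cr-RNA and PAM: agtgattcacgaagccccgtCGG
Target site in Nfkbie exon 2: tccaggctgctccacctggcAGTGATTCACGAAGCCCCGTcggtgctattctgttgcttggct

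Nfkbie (chromosome 17, 45866585 to 45874661 on the forward strand, GRCm39) was still transcribed at both sites. Its level, in CPM, counts relative to the TMM-scaled library size, and given here and below for replicates 1 to 4, was 64.9, 47.2, 55.9 and 47.5 CPM in the PC and 120.3, 54.2, 109 and 112 CPM in the spleen, and 56.0, 59.9 and 48.1 CPM in the 3 cultures. The groups overlapped through spleen replicate 2, the lowest of the spleens. The log2 fold change of PC minus spleen was -0.88 (standard error 0.23, adjusted p 0.00767), short of the limit of 1 set for a call, and -1.07 without spleen replicate 2 (adjusted p 1.89e-05). An edit of few bases need not change a count of transcripts, so these levels do not check the editing.

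The total estimated count of the 8 libraries lay between 24036763 and 26573453. The site separated the libraries along the first principal component, which held 79.0% of the variance, and the second component, with 7.71%, set spleen replicate 2 at 53.5 against -27.3 to -12.5 for the other spleens. Its mean Spearman correlation with the other spleens was 0.9779, whereas the values of the other spleens lay between 0.9849 and 0.9883 and those of the PC libraries between 0.9910 and 0.9933. Of 9650 genes with at least 5 CPM, 148 lay over 1 log2 unit above and 227 over 1 log2 unit below the mean of the other 3 spleens in this library. Macrophage and erythroid transcripts were among the low ones, C1qa at 4.45 CPM against 38.4, 19.1 and 15.9 CPM and the summed erythroid list at 217 CPM against 1011, 1192 and 912 CPM. Mitochondrially encoded transcripts made up 2.40% of its CPM against 1.03 to 1.69% in the other spleens and 2.28 to 3.76% in the PC. Their part in the site difference was not tested. The counts of genes called were repeated without this library and are given below where they changed.

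**Figure D1:**
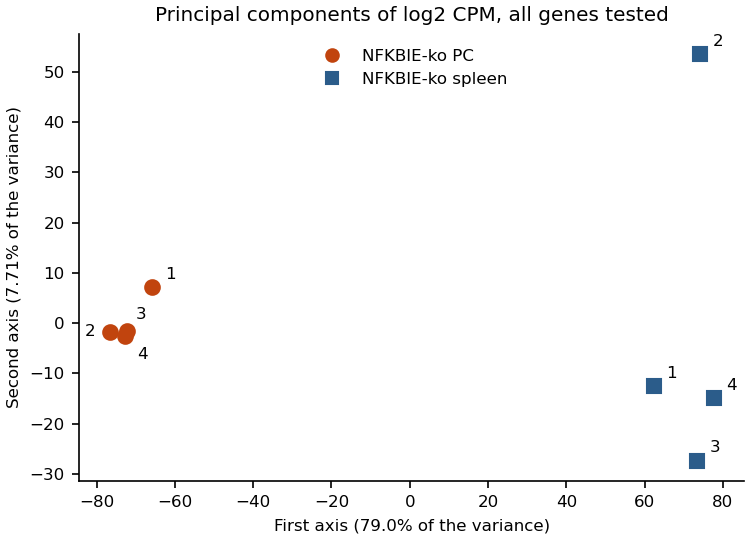
Each point is 1 NFKBIE-ko library placed on the first (horizontal) and second (vertical) principal component of log2 CPM over all genes tested, in arbitrary units, with its replicate number. The 4 PC libraries (circles) lie between -76.7 and -65.8 on the first axis and the 4 spleens (squares) between 62.4 and 77.6, and spleen replicate 2 stands apart from the other spleens on the second.

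Of 12628 genes tested, 1976 (15.6%) were called higher in the PC and 816 (6.46%) higher in the spleen, with a call defined by an adjusted p below 0.05 in edgeR's quasi-likelihood test and a log2 fold change beyond 1. Without the limit on the fold, 7546 genes (59.8%) passed, and the median log2 fold change of all genes tested was -0.01. The 4 PC libraries lay above all 4 spleens for 3564 genes (28.2%) and below them for 3435 (27.2%). The shares of all genes called and the shares without overlap are the background for every list count below. Without spleen replicate 2, 2165 genes were called higher in the PC and 891 in the spleen, and 2646 of the 2792 calls were shared.

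The 12 largest differences toward the PC included many genes known from macrophages. Saa3 (chromosome 7, 46361422 to 46365576 on the reverse strand, GRCm39), an acute-phase apolipoprotein that macrophages secrete, was at 1621, 3127, 1439.96 and 2411 CPM in the PC and 5.97, 3.19, 5.59 and 2.70 CPM in the spleen, and no PC library was near a spleen (log2 fold change 8.93, standard error 0.41, adjusted p 3.52e-07). Alox15, a lipoxygenase of resident peritoneal macrophages, was at 20.7, 42.5, 10.4 and 33.3 CPM in the PC and 0, 0.0394, 0.0793 and 0.0381 CPM in the spleen (log2 fold change 9.25, standard error 0.67, adjusted p 4e-06). C3ar1, the receptor of the complement fragment C3a, was at 79.7, 94.4, 133 and 98.5 CPM in the PC and 0.306, 0, 0.159 and 0.114 CPM in the spleen (log2 fold change 9.39, standard error 0.37, adjusted p 1.94e-07). Folr2, a folate receptor of tissue macrophages (9.31), Ltc4s, which makes leukotriene C4 (9.12), Dab2, an endocytic adaptor (9.10), Ednrb, an endothelin receptor (9.10), and Serpinb2, an inhibitor of plasminogen activators (9.45), differed by log2 fold changes of similar size. F7, coagulation factor VII, Fam20a and Nxph4 had 1 to 3 counts over the 4 spleens, and their ratios of PC to spleen were 746 (255 to 3623), 526 (179.8 to 2556) and 532 (95.1 to 21060.0) (exact 95% intervals, for counting error only). In the 3 cultures the 11 genes named here were below 1 CPM, except Nxph4 at 1.16, 2.58 and 0.496 CPM.

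Toward the spleen, the 12 largest differences joined immediate-early transcription factors with genes of red cells, iron handling and granulocytes. Fosb (chromosome 7, 19036621 to 19043976 on the reverse strand, GRCm39), a subunit of the AP-1 transcription factor, was at 12.2, 2.18, 6.29 and 5.50 CPM in the PC and 659, 1689, 442 and 496 CPM in the spleen, a 126-fold difference (log2 fold change -6.97, standard error 0.67, adjusted p 2.14e-05). Its partner Fos was at 59.3, 15.2, 32.5 and 21.6 CPM in the PC and 822, 905, 609 and 476 CPM in the spleen (log2 fold change -4.45, standard error 0.44, adjusted p 2.14e-05). Jun, another AP-1 subunit, was at 71.6, 44.6, 61.1 and 49.8 CPM in the PC and 919, 1336, 665 and 592 CPM in the spleen (log2 fold change -3.96, standard error 0.29, adjusted p 3.93e-06). All 4 spleens lay above all 4 PC libraries for the 3 genes, and spleen replicate 2 was the highest of the 8 in each. Slc40a1, the iron exporter ferroportin (-4.39), Alas2, which begins heme synthesis in red cells (-4.38), Hba-a1, a globin chain (-4.17), Ngp, a protein of neutrophil granules (-4.21), and Vcam1, the adhesion molecule of splenic macrophages and stroma (-3.53), were higher in the spleen, as were Rgs16, which limits signals of G-protein-coupled receptors (-4.45), Synpo2 (-4.01), Rnf32 (-3.57) and A930003A15Rik (-4.69).

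Macrophage transcripts were higher in the PC. All 19 tested members of a list of general macrophage markers were called higher in the PC, against 15.6% of all genes, with a median log2 fold change of 4.24 against -0.01 for all genes. Of 16 markers of large peritoneal macrophages, 15 were called higher in the PC (median 6.19). The summed level of the second list was 3126 to 5391 CPM in the PC, 42.8 to 54.3 CPM in the spleen and 19.8 to 27.3 CPM in culture. Gata6, the factor that defines these cells, was at 3.04, 4.01, 2.80 and 3.44 CPM in the PC and 0.0383, 0.0394, 0.0793 and 0 CPM in the spleen (log2 fold change 6.24, standard error 0.43, adjusted p 2.86e-06) and at 0, 0 and 0 CPM in the 3 cultures. Arg1, the arginase of alternatively activated macrophages, was at 856, 1177, 971 and 1056 CPM in the PC and 5.55, 1.85, 5.59 and 5.44 CPM in the spleen (log2 fold change 7.77, standard error 0.34, adjusted p 2.74e-07). Fn1, fibronectin, was at 681, 682, 529 and 683 CPM in the PC and 11.2, 6.03, 5.83 and 4.99 CPM in the spleen (log2 fold change 6.51, standard error 0.27, adjusted p 2.5e-07), and Prg4, a lubricating proteoglycan, had a log2 fold change of 8.33. Saa3 (above), Arg1 and Fn1 made up most of the summed level of this list in every PC library, so the sum mostly follows these genes. Icam2, which B cells express too, was the member not called (0.65, adjusted p 0.00131).

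The general markers were lower in the spleens but were detected there. Lyz2, the lysozyme of myeloid cells, was at 1702, 2503, 1932 and 2082 CPM in the PC and 141, 41.2, 90.4 and 52.1 CPM in the spleen (log2 fold change 4.65, standard error 0.39, adjusted p 8.49e-06). Adgre1, which encodes the F4/80 antigen, was at 249, 298, 197 and 277 CPM in the PC and 12, 3.19, 10.2 and 9.36 CPM in the spleen (log2 fold change 4.87, standard error 0.35, adjusted p 3.87e-06). C1qa, a chain of complement C1q, was at 276, 486, 343 and 371 CPM in the PC and 38.4, 4.45, 19.1 and 15.9 CPM in the spleen (log2 fold change 4.24, standard error 0.54, adjusted p 0.000112). In each of the 3 genes the PC lay above the spleens, and spleen replicate 2 was the lowest of all. Apoe (4.84), Itgam, the integrin chain CD11b (5.66), Csf1r, the receptor for macrophage colony-stimulating factor (2.38), Ctss (2.17) and Cybb (1.95) were also higher in the PC. Lyz2, C1qa and Csf1r were below 1 CPM in all 3 cultures. Adgre1, at 28.7, 23.9 and 20.6 CPM, Ctss, at 444, 452 and 433 CPM, Cybb, at 129.5, 129 and 147 CPM, Apoe, at 71.6, 61.4 and 63.3 CPM, and Itgam, at 4.32, 6.66 and 3.18 CPM, were detected there, and 9 of the 19 members reached 1 CPM in all 3 cultures, so the summed list does not count macrophages alone.

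Genes named for splenic macrophages split. Of 10 tested, 7 were called higher in the PC and 3 in the spleen, against 15.6% and 6.46% of all genes. Slc40a1 was at 0.684, 0.119, 0.425 and 0.119 CPM in the PC and 14.1, 2.01, 6.90 and 5.71 CPM in the spleen (log2 fold change -4.39, standard error 0.70, adjusted p 0.000441). Vcam1 was at 17.0, 7.26, 9.09 and 6.13 CPM in the PC and 192, 47.7, 109 and 106 CPM in the spleen (log2 fold change -3.53, standard error 0.46, adjusted p 0.000124). Spic, the transcription factor of red pulp macrophages, was at 0.646, 0.556, 0.977 and 0.396 CPM in the PC and 9.0, 0.670, 4.48 and 4.00 CPM in the spleen (log2 fold change -2.82, standard error 0.66, adjusted p 0.00429). For Slc40a1 and Vcam1 all spleens lay above the PC, with spleen replicate 2 the lowest spleen, and for Spic this library overlapped the PC. Vcam1 and Spic were also detected in culture, at 9.64, 10.9 and 11.8 and 2.66, 1.39 and 1.11 CPM. Hmox1, which degrades heme (2.65), Marco, a scavenger receptor of the marginal zone (3.03), Fcna, a ficolin (3.80), and Trf, transferrin (4.92), were higher in the PC. Among 15 markers of monocytes and alternatively activated macrophages, 9 were called higher in the PC and 4 in the spleen, against 15.6% and 6.46% of all genes. In the fit of all 22 samples the counts were 8 and 1. Toward the PC, Mrc1, the mannose receptor, was at 78.7, 74.0, 119.7 and 80.4 CPM in the PC and 10.6, 7.60, 5.39 and 7.38 CPM in the spleen (log2 fold change 3.50, standard error 0.23, adjusted p 2.25e-06). Chil3 (1.32) and Plac8 (1.17) were also called there, and Itgax (-1.27) was among those called in the spleen.

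**Figure D2:**
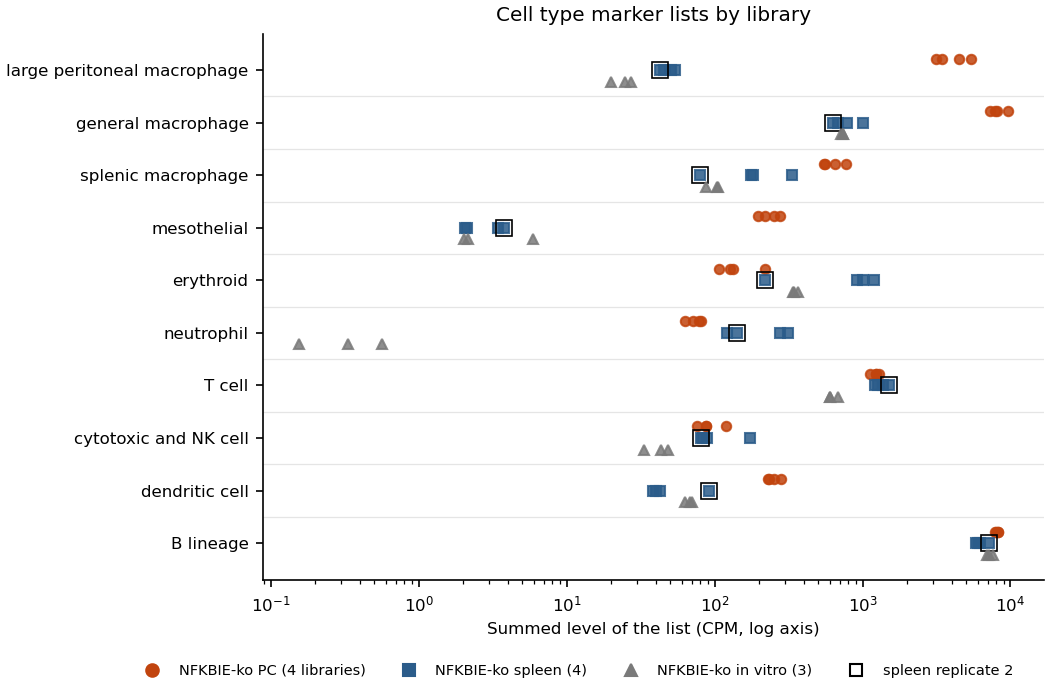
Each row is a list of cell type markers, and each symbol is the summed level of its members in 1 NFKBIE-ko library in CPM on a log axis (circles, PC; squares, spleen; triangles, culture; outlined squares, spleen replicate 2). The macrophage and mesothelial lists lie higher in all PC libraries than in any spleen, the neutrophil list higher in all spleens, and the erythroid list is low in spleen replicate 2.

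Fewer genes of other host cells of the cavity could be tested. Only 3 of 12 mesothelial markers were tested, since the others were below the filter on low counts or had no row, and 2 were called higher in the PC, 3 without spleen replicate 2. Krt8, at 117, 158, 118 and 143 CPM in the PC and 1.23, 2.05, 1.82 and 1.07 CPM in the spleen (log2 fold change 6.43, standard error 0.22, adjusted p 7.35e-08), and Krt18 (log2 fold change 6.67, standard error 0.21, adjusted p 6.24e-08), the called keratins of simple epithelia, lay at 0.676 to 2.15 and 1.08 to 3.72 CPM in culture. Msln, Krt19, Upk3b and Wt1, which define mesothelium, were not tested, so the keratins alone do not name a mesothelial source. Hdc, the histamine-forming enzyme of mast cells and basophils (1.18), Siglecf (4.02), Pf4, platelet factor 4 (4.42), and Vwf, von Willebrand factor (2.94), were higher in the PC, and Ear2, a ribonuclease of eosinophils, in the spleen (-2.96). Of 7 stromal and endothelial genes tested, 4 were called higher in the PC, among them Pecam1 (1.35) and the matrix proteoglycan gene Dcn (3.84), and Cdh5, the cadherin of endothelium, was called higher in the spleen (-3.04), with 2.55, 1.92 and 3.06 CPM in culture. Over all genes, 15.6% were called higher in the PC and 6.46% in the spleen.

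Red cell transcripts were higher in the spleen. Of 15 erythroid genes tested, 14 were called higher in the spleen, against 6.46% of all genes (median -3.32, and -3.63 without spleen replicate 2, with 14 called), and 13 without spleen replicate 1, with 1 in the PC. An edgeR fit of all 22 samples, in which every group shares 1 estimate of the spread, called 8 in the spleen and left Hba-a1 and Hbb-bs above the limit (adjusted p 0.0553 and 0.0562). The spleens lay above the PC without overlap for 9 of the 15 genes, against 27.2% of all genes. The summed list reached 217 CPM in spleen replicate 2, up to 218 CPM in the PC and 340 to 365 CPM in culture. Tfrc, given below, made up most of the sum in spleen replicate 2 and in every PC library, so the sum does not count red cells alone. Hba-a1 was at 20.7, 5.04, 5.61 and 1.98 CPM in the PC and 191, 21.2, 229 and 163 CPM in the spleen (log2 fold change -4.17, standard error 0.89, adjusted p 0.00367). Hbb-bs, at 24.6, 3.17, 7.48 and 0.237 CPM in the PC and 245, 14.1, 371 and 223 CPM in the spleen (log2 fold change -4.58, standard error 1.24, adjusted p 0.0121), overlapped between the sites, because spleen replicate 2 lay below PC replicate 1. The globin genes have near-identical copies between which reads are divided, so the values of single copies are uncertain. Without PC replicate 1, the PC library with the most globin, the median of the list was -5.21. Tfrc, the transferrin receptor, which proliferating cells use as well, was at 129, 103, 105 and 93.7 CPM in the PC and 286, 149.8, 269 and 261 CPM in the spleen (log2 fold change -1.17, standard error 0.19, adjusted p 0.000538) and at 335, 316 and 316 CPM in culture.

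Of 13 neutrophil genes, 8 were called higher in the spleen and 1 in the PC (median -2.10), against 6.46% and 15.6% of all genes. Without spleen replicate 2, 9 were called in the spleen. S100a8 and S100a9, the subunits of calprotectin, had log2 fold changes of -2.64 and -3.17 (adjusted p 0.000427 and 0.000573), and Retnlg, a resistin-like protein of granulocytes, was at 2.43, 0.556, 2.29 and 0.633 CPM in the PC and 20.6, 8.70, 26.0 and 10.3 CPM in the spleen (log2 fold change -3.47, standard error 0.54, adjusted p 0.000409). The 4 spleens lay above the 4 PC libraries for all 3 genes. In the fit of 22 samples 3 of the 13 were called higher in the spleen, and S100a8 and S100a9 missed the test (adjusted p 0.0902 and 0.0704). Summed over the list, the level was 62.7 to 81.3 CPM in the PC, 121 to 312 CPM in the spleen and under 1 CPM in each culture.

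Of 19 T-cell genes, 8 were called higher in the spleen and 1 in the PC (median -0.58), against 6.46% and 15.6% of all genes. Without spleen replicate 2, 6 were called in the spleen. Cd3e, a chain of the T-cell receptor complex, was at 1.06, 2.46, 2.97 and 1.66 CPM in the PC and 3.33, 5.67, 4.36 and 3.58 CPM in the spleen (log2 fold change -1.06, standard error 0.32, adjusted p 0.0164). Trbc2, a constant region of the receptor, was at 2.01, 4.64, 4.76 and 3.56 CPM in the PC and 5.82, 9.53, 13.9 and 7.38 CPM in the spleen (log2 fold change -1.30, standard error 0.33, adjusted p 0.0065). The groups did not overlap, but the call of Cd3e was lost without PC replicate 1, PC replicate 4 or spleen replicate 2, with log2 fold changes of -0.84, -0.97 and -0.88. In the fit of 22 samples 4 of the 19 were called higher in the spleen, and Cd3e and Trbc2 missed the test (adjusted p 0.25 and 0.244). Foxp3, the factor of regulatory T cells, was at 0.190, 0.159, 0.0850 and 0.158 CPM in the PC and 0.421, 1.14, 0.674 and 1.03 CPM in the spleen (log2 fold change -2.42, standard error 0.44, adjusted p 0.00103). Cd6 (-1.79), Cd3g (-1.16) and Tcf7 (-1.0, under the limit without PC replicate 2, PC replicate 3, spleen replicate 1 or spleen replicate 2, at -0.92, -0.98, -0.96 and -0.98), also higher in the spleen, and Cd2, higher in the PC (1.50), were at 11.8 CPM or more in every culture, so these transcripts also occurred in the line without a host. Il7r, the receptor for interleukin 7, did not reach the limit on the fold (-0.37, adjusted p 0.017).

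Of 17 genes of cytotoxic and NK cells, 5 were called higher in the spleen and 2 in the PC (median -0.24). Over all genes, 6.46% and 15.6% were called. The balance of the list turned without spleen replicate 3, with 2 called higher in the spleen, 5 in the PC and a median of 0.12. It was 2 and 2 without PC replicate 1 or PC replicate 4, 3 and 3 without PC replicate 2, 3 and 4 with the replicate block, and 1 and 0 in the fit of 22 samples. Ifng, interferon gamma, was at 0.418, 0.516, 0.680 and 0.198 CPM in the PC and 2.30, 1.85, 4.80 and 1.75 CPM in the spleen (log2 fold change -2.56, standard error 0.45, adjusted p 0.000852), with no overlap. Eomes, a transcription factor of these cells (-1.54), Gzmb, granzyme B (-1.03), and Cd8a (-1.17) were called as well, and Eomes and Gzmb overlapped between the sites. The calls of Gzmb and Cd8a were lost without PC replicate 1, PC replicate 4 or spleen replicate 3, and that of Gzmb also without PC replicate 2. Without spleen replicate 3, the highest library in both, their log2 fold changes were -0.58 and -0.86. Of 9 dendritic cell genes, Xcr1 (-2.83) and Clec9a (-2.70), both markers of cross-presenting cells, and Flt3 (-1.16), a cytokine receptor, were called higher in the spleen, and the factor gene Batf3 (2.88) and the chemokine receptor gene Ccr9 (2.63) in the PC. Ccr9 was at 49.9, 41.1 and 48.1 CPM in the cultures.

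Ms4a1 and Cd79b were among the B-cell genes higher in the PC. Of 19 B-lineage genes, 5 were called higher in the PC and 0 in the spleen (median 0.28), while 15.6% of all genes were called higher in the PC. The count was 7 without spleen replicate 2 and 4 without spleen replicate 1, 3 or 4. Ms4a1, which encodes CD20, was at 1136, 1346, 1109 and 1071 CPM in the PC and 337, 362, 342 and 291 CPM in the spleen (log2 fold change 1.8, standard error 0.10, adjusted p 1.12e-06) and at 502, 625 and 485 CPM in culture. Cd79b, a signalling chain of the B-cell receptor, was at 695, 794, 815 and 869 CPM in the PC and 204, 272, 278 and 288 CPM in the spleen (log2 fold change 1.6, standard error 0.12, adjusted p 4.96e-06) and at 266, 298 and 273 CPM in culture. Both lay above every spleen in each PC library, and the fitted differences between the groups were 3.48-fold and 3.03-fold. Pou2f2, the transcription factor Oct-2 (1.84), and Bank1, an adaptor of the receptor (1.17), rose in the PC as well, whereas Cd24a did not reach the limit (-0.51, adjusted p 0.000578).

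Of 12 genes of B-1 cells, 4 were called higher in the PC and 1 in the spleen (median 0.28). Over all genes, 15.6% and 6.46% were called. Zbtb32, a transcriptional repressor, was at 95.2, 81.4, 97.2 and 89.3 CPM in the PC and 11.4, 33.5, 16 and 8.60 CPM in the spleen (log2 fold change 2.38, standard error 0.37, adjusted p 0.000363). Cd9, a tetraspanin, was at 179, 179, 155 and 198 CPM in the PC and 64.3, 79.3, 72.4 and 52.3 CPM in the spleen (log2 fold change 1.40, standard error 0.13, adjusted p 1.85e-05). Fcrl5, an inhibitory Fc-receptor-like protein (1.67), and Sox5 (3.28) moved the same way. Cd5, the surface glycoprotein that marks both B-1a cells and chronic lymphocytic leukemia, was called in the other direction, at 27.3, 22.4, 26.0 and 22.5 CPM in the PC and 55.5, 49.7, 57.0 and 63.9 CPM in the spleen (log2 fold change -1.21, standard error 0.11, adjusted p 1.18e-05), with no overlap. Of 9 plasma cell genes, Jchain (2.37) and Prdm1, the regulator of plasma cell fate (1.22), were higher in the PC, and Irf4, a factor induced by receptor signals and NF-κB, in the spleen, at 129.8, 113, 101 and 101 CPM in the PC and 399, 335, 232 and 319 CPM in the spleen (log2 fold change -1.54, standard error 0.16, adjusted p 3.15e-05).

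Among genes of antigen presentation, 2 of 11 class II genes were called higher in the PC and 1 in the spleen. Over all genes, 15.6% and 6.46% were called. H2-Oa (1.53) and H2-Ob (1.33), which restrain peptide loading, were called higher in the PC. Ciita, the transactivator of the class, was called higher in the spleen, at 25.9, 33.8, 20.3 and 21.0 CPM in the PC and 52.1, 41.0, 56.5 and 68.7 CPM in the spleen (log2 fold change -1.12, standard error 0.19, adjusted p 0.000694). This call was lost without spleen replicate 4 (-0.99) and in the fit of 22 samples (adjusted p 0.064). Ciita was highest in the cultures, at 197, 182 and 197 CPM. Of 15 class I genes, H2-T23, a nonclassical ligand of NK cell receptors, was called (1.36, adjusted p 8.78e-05).

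Of 11 NF-κB subunits and inhibitors, 2 were called higher in the spleen and 0 in the PC (median -0.51), against 6.46% and 15.6% of all genes. Without spleen replicate 2, 3 were called in the spleen, with Nfkbie added. The spleens lay above the PC without overlap for 5 of the 11, against 27.2% of all genes. Rel, the c-Rel subunit, was at 92.9, 38.7, 55.3 and 50.1 CPM in the PC and 160.0, 163, 90.4 and 141 CPM in the spleen (log2 fold change -1.23, standard error 0.28, adjusted p 0.00349), and PC replicate 1 overlapped the lowest spleen. Nfkbid, an atypical nuclear inhibitor, was at 56.4, 27.9, 35.6 and 31.8 CPM in the PC and 116, 81.7, 106 and 146 CPM in the spleen (log2 fold change -1.57, standard error 0.24, adjusted p 0.000343), with all spleens above the PC. Nfkbia (-0.51, adjusted p 0.00088), Nfkb1 (-0.51, adjusted p 0.00108), Nfkb2 (-0.69, adjusted p 0.000906) and Nfkbib (-0.61, adjusted p 0.000287) passed the adjusted p but not the limit on the fold. Rela (-0.15, adjusted p 0.24), Relb (0.35, adjusted p 0.165), Bcl3 (0.38, adjusted p 0.0843) and Nfkbiz (-0.36, adjusted p 0.33) did not pass the test.

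Among 26 targets of NF-κB, 3 were called higher in the spleen and 2 in the PC (median -0.19), against 6.46% and 15.6% of all genes. Without spleen replicate 2, 6 were called in the spleen, and without spleen replicate 1, 4 in the PC. Tnfaip3, which encodes the feedback inhibitor A20, was at 156, 92.8, 93.4 and 90.8 CPM in the PC and 262, 274, 192 and 221 CPM in the spleen (log2 fold change -1.14, standard error 0.20, adjusted p 0.000728). Gadd45b, a stress-induced survival gene, was at 10.2, 12.3, 15.3 and 15.3 CPM in the PC and 127, 70.7, 107 and 114 CPM in the spleen (log2 fold change -2.99, standard error 0.20, adjusted p 2.64e-06). The spleens lay above the PC in both. Ccl22, a chemokine that attracts regulatory T cells, was at 58.5, 24.5, 36.6 and 33.4 CPM in the PC and 223, 6.42, 167 and 204 CPM in the spleen, so that spleen replicate 2 was the lowest of the 8 and the other spleens the highest, and the difference did not pass the test (-1.97, adjusted p 0.0653). Without that library the log2 fold change was -2.37 (adjusted p 0.000197).

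Many immediate-early genes, which cells transcribe within minutes of a signal, were higher in the spleen. Of 22, 14 were called higher in the spleen and 0 in the PC (median -1.54), against 6.46% and 15.6% of all genes. The spleens lay above the PC without overlap for 17 of the 22, against 27.2% of all genes. Without spleen replicate 2, 15 were called higher in the spleen, and without spleen replicate 1, 13, with 1 in the PC. Summed, the 22 reached 1323 to 2427 CPM in the PC, 5296 to 8738 CPM in the spleen and 1301 to 1434 CPM in culture. Dusp1, a phosphatase that ends MAP kinase signals, was at 105, 54.4, 66.9 and 69.4 CPM in the PC and 372, 263, 262 and 242 CPM in the spleen (log2 fold change -1.95, standard error 0.21, adjusted p 4.38e-05). Cd69, an early activation marker of lymphocytes, was at 93.2, 24.3, 45.2 and 44.5 CPM in the PC and 327, 270.1, 269.5 and 278 CPM in the spleen (log2 fold change -2.47, standard error 0.34, adjusted p 0.000193). Atf3, a stress-induced factor (-2.11), Junb (-1.46) and Jund (-1.16) moved the same way, whereas Klf2 (-0.92, adjusted p 0.000705), a factor of lymphocyte quiescence, did not reach the limit, except without spleen replicate 4 (-1.0). Dusp1 missed the test in the fit of 22 samples (adjusted p 0.108). Egr1 was at 91.9, 10.0, 20.0 and 18.2 CPM in the PC and 202, 134, 109 and 108 CPM in the spleen (log2 fold change -1.98, standard error 0.63, adjusted p 0.0224), with PC replicate 1 far above the other PC libraries. Its adjusted p rose to 0.05 or above when PC replicate 3, PC replicate 4, spleen replicate 1 or spleen replicate 2 was left out (adjusted p 0.0576, 0.054, 0.059 and 0.0876).

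Of 13 genes of the unfolded protein and integrated stress responses, 4 were called higher in the spleen, against 6.46% of all genes. The count was 7 without spleen replicate 2. The other 9 genes were not called, with log2 fold changes of up to 1.08 (median of the list -0.85). Without PC replicate 1, 1 was called higher in the PC. Hspa5, the chaperone BiP of the endoplasmic reticulum, was at 542, 522, 495 and 437 CPM in the PC and 1630.1, 1105, 1189 and 1075 CPM in the spleen (log2 fold change -1.33, standard error 0.14, adjusted p 3.93e-05). Atf4, the factor of the integrated stress response, was at 189, 205, 204 and 187 CPM in the PC and 575, 563, 511 and 517 CPM in the spleen (log2 fold change -1.47, standard error 0.08, adjusted p 7.44e-07), and at 207, 210.5 and 209.7 CPM in culture, near the PC. Neither gene overlapped between the sites. Ddit3, also called CHOP, had a log2 fold change of -2.22 and Dnajb9 one of -1.50. Of 11 heat shock genes, 4 were called higher in the spleen (median -1.01), against 6.46% of all genes. Without spleen replicate 1, 0 were called higher in the spleen and 1 in the PC. The count was 3 without spleen replicate 2 and 2 with the replicate block or upper quartile factors. Bag3 (-1.21, adjusted p 0.000888) and Hsph1 (-1.18, adjusted p 0.00303), a cochaperone and a chaperone, kept the direction without spleen replicate 1 but fell short of the limit (-0.97 and -0.91), and Hspa1b was high in that library alone, at 106, 5.43, 16.1 and 6.01 CPM in the spleens. Hspa8, the constitutive chaperone of the family, was not called (-0.90, adjusted p 0.000125).

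**Figure D3:**
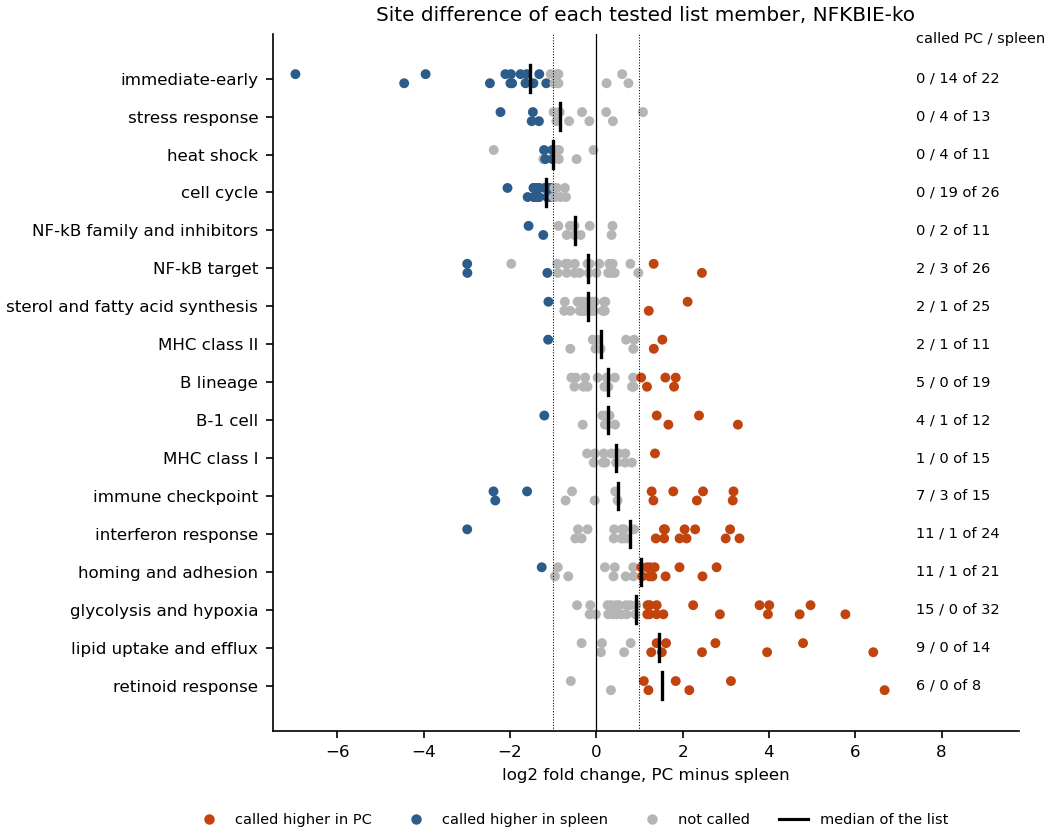
Each point is a tested member of the list named at the left, placed at its log2 fold change of PC minus spleen (colour, called or not; black bar, median; dotted lines, the limits of 1 and -1), and the counts called higher in the PC and in the spleen are at the right. The immediate-early, stress, heat shock, cell cycle and NF-κB family lists hold calls only toward the spleen in this fit of 8 libraries, and the glycolysis and hypoxia, lipid uptake and efflux, and retinoid lists only toward the PC.

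Genes of DNA replication and mitosis were lower in the PC. Of 26, 19 were called higher in the spleen (median -1.17), against 6.46% of all genes, and 20 without spleen replicate 2. The spleens lay above the PC without overlap for all 26, against 27.2% of all genes. Cdc6, which licenses replication origins, was at 23.3, 27.8, 22.2 and 23.1 CPM in the PC and 118, 99.4, 90.0 and 92.0 CPM in the spleen (log2 fold change -2.06, standard error 0.12, adjusted p 9.36e-07). Mcm5, a subunit of the replicative helicase, was at 130.0, 145, 124 and 124 CPM in the PC and 383, 346, 413 and 428 CPM in the spleen (log2 fold change -1.59, standard error 0.09, adjusted p 9.36e-07), and the subunits Mcm3 (-1.34), Mcm7 (-1.43) and Mcm6 (-1.03) differed likewise. Summed, the list was at 2437 to 3143 CPM in the PC, 5901 to 6366 CPM in the spleen and 6499 to 6840.3 CPM in culture, where the line divides without a host, so the cultures lay above both sites. Cdc6, at 63.4, 58.8 and 68.8 CPM, and Mcm5, at 318, 291 and 325 CPM, lay between the sites there. Top2a, a topoisomerase of dividing cells, was at 358, 407, 277 and 314 CPM in the PC and 788, 847, 597 and 684 CPM in the spleen (log2 fold change -1.11, standard error 0.14, adjusted p 0.000125). Mki67, the Ki-67 antigen, and Pcna, the replication clamp, did not reach the limit on the fold (-0.99, adjusted p 0.0127, and -0.96, adjusted p 3.76e-05), but Mki67 was called without PC replicate 1, PC replicate 2, spleen replicate 3 or spleen replicate 4 (-1.09, -1.03, -1.17 and -1.12) and Pcna without PC replicate 2 or spleen replicate 2 (-1.02 and -1.0). The members are not independent, since the same dividing cells express them. The summed macrophage markers were higher in the same PC libraries (above), as were Ms4a1 and Cd79b, and the part of host RNA in the cell cycle difference was not tested.

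The promoters of 2 of these genes are shown because many members share a motif in them. In the 250 bases before the start, CCAAT or its reverse complement ATTGG stood in 17 of the 22 members with a promoter in the RefSeq table (77.3%), against 41.0% of the 9354 genes tested that had one and 37.5% of all 27025 symbols. The window of Cdc6 did not hold these letters. A match is a description of the letters and not a binding site. The sequences are from GRCm38.p6, chr8:75109259-75109508 on the forward strand for Mcm5 and chr11:99024190-99024439 on the reverse strand for Top2a, and capitals mark the motif on either strand.
Mcm5: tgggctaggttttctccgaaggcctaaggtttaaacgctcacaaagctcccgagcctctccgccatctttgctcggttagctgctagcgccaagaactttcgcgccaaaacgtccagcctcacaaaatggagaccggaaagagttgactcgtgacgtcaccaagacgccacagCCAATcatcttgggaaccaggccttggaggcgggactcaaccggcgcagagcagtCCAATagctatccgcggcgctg
Top2a: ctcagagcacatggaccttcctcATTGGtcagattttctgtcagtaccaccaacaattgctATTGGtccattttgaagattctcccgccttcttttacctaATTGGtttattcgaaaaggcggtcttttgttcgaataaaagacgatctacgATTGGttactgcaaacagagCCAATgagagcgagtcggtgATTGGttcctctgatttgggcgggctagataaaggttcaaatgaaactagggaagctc

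Genes of glycolysis and of the response to low oxygen were higher in the PC. Of 32, 15 were called higher there and 0 in the spleen (median 0.91), against 15.6% and 6.46% of all genes. Egln3, an oxygen-sensing prolyl hydroxylase that is itself induced by hypoxia, was at 58.5, 73.2, 61.3 and 49.8 CPM in the PC and 3.02, 1.02, 2.10 and 1.56 CPM in the spleen (log2 fold change 4.96, standard error 0.28, adjusted p 9.36e-07). Bnip3, which directs mitochondria to autophagy, was at 73.7, 99.8, 82.5 and 73.6 CPM in the PC and 8.88, 1.89, 5.04 and 4.99 CPM in the spleen (log2 fold change 3.98, standard error 0.36, adjusted p 1.42e-05). Slc16a3, the lactate exporter MCT4, was at 89.0, 135, 115 and 100.0 CPM in the PC and 7.12, 1.69, 4.40 and 3.42 CPM in the spleen (log2 fold change 4.71, standard error 0.36, adjusted p 5.2e-06). No PC library overlapped a spleen in these 3 genes, and spleen replicate 2 was the lowest in each. All 3 were also detected in culture, at 32.8, 42.3 and 22.5 CPM for Egln3, 68.9, 82.0 and 43.2 CPM for Bnip3 and 50.7, 72.8 and 27.9 CPM for Slc16a3.

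Vegfa, the angiogenic growth factor, was at 23.6, 23.2, 23.3 and 16.7 CPM in the PC and 2.22, 1.34, 1.11 and 0.685 CPM in the spleen (log2 fold change 4.01, standard error 0.30, adjusted p 4.63e-06). Ndrg1 was at 186, 213, 184 and 209 CPM in the PC and 26.5, 30.2, 22.6 and 29.3 CPM in the spleen (log2 fold change 2.86, standard error 0.11, adjusted p 1.48e-07). Ddit4, an inhibitor of mTORC1 signalling, was at 516, 555, 501 and 563 CPM in the PC and 176, 179.6, 177 and 191 CPM in the spleen (log2 fold change 1.55, standard error 0.07, adjusted p 3.52e-07). Both showed little spread within a site. The enzymes Gpi1 (1.19), Pdk1 (1.18) and Pfkfb3 (1.24), of glycolysis and its control, were called with smaller differences. Ddit4 was at 47.4, 70.5 and 44.1 CPM in culture, below both sites.

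The promoters of 4 of these genes are shown for the core of the hypoxia response element, ACGTG. It or its reverse complement CACGT stood in the 250 bases before the start of 18 of the 30 members with a promoter (60.0%), and of 10 of the 14 called higher in the PC (71.4%), against 25.1% of the genes tested and 18.5% of all symbols. The windows of Gpi1 and Pdk1 did not hold these letters, which says nothing of the factor. The sequences are from RefSeq GRCm38.p6, chr12:54203875-54204124 on the reverse strand for Egln3, chr7:138909507-138909756 on the reverse strand for Bnip3, chr11:120948817-120949066 on the forward strand for Slc16a3 and chr10:59951771-59952020 on the reverse strand for Ddit4, and capitals mark the motif on either strand.
Egln3: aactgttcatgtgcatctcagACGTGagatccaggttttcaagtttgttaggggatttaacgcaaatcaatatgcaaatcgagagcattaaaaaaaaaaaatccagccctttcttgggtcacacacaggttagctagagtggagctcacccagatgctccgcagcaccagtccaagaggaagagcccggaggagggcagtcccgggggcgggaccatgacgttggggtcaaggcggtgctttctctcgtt
Bnip3: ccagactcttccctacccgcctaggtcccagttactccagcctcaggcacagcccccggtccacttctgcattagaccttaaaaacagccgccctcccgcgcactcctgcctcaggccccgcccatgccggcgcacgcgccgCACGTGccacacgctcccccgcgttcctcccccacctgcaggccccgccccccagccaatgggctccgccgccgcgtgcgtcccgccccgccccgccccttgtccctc
Slc16a3: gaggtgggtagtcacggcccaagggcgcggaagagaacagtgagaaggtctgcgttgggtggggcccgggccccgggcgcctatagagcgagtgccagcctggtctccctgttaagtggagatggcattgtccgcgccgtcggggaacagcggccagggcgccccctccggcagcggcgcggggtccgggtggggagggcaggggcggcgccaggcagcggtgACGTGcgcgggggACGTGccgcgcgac
Ddit4: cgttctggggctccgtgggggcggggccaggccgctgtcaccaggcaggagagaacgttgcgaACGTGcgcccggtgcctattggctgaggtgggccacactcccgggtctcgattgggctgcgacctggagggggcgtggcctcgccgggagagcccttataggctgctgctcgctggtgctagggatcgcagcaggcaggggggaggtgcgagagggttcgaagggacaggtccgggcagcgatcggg

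**Figure D4:**
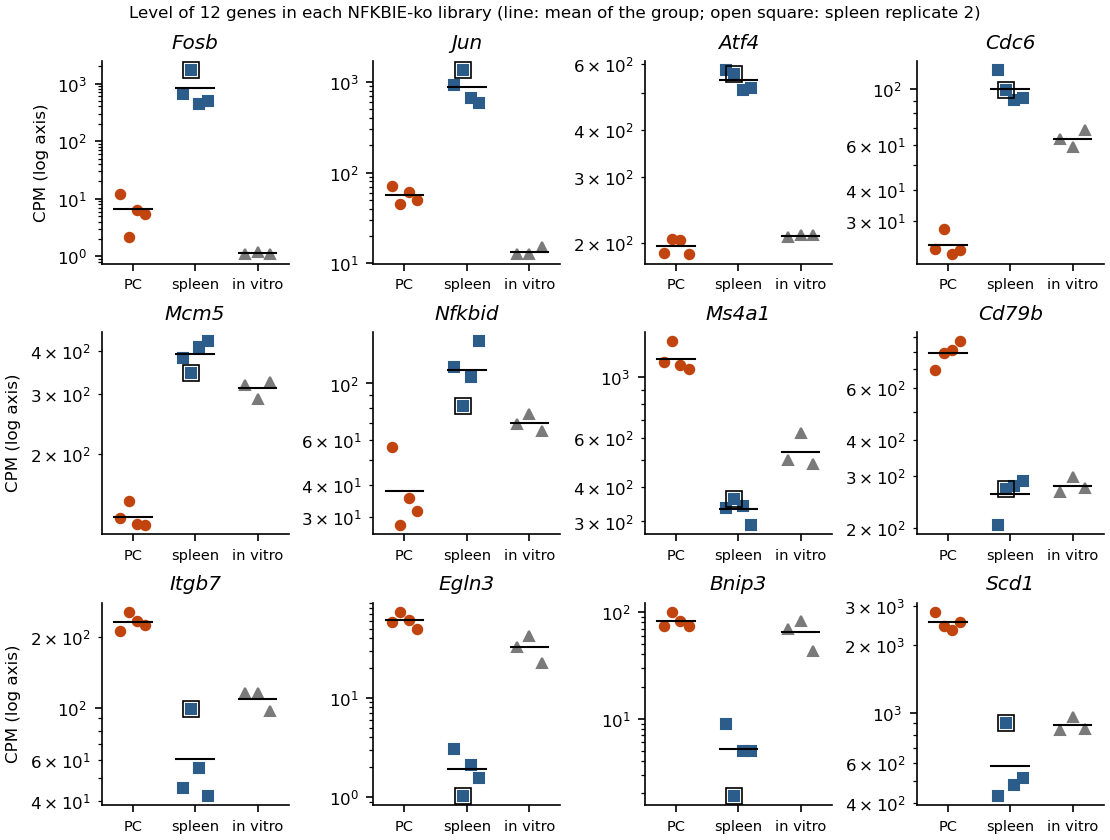
Each panel gives the level of 1 gene in CPM on a log axis in the 4 PC, 4 spleen and 3 culture libraries of NFKBIE-ko cells (symbols, libraries; line, mean of the group; open square, spleen replicate 2). In every panel the PC and the spleen do not overlap, and the cultures lie near the PC for Atf4 and Bnip3 and near the spleen for Cd79b.

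Of 21 homing and adhesion genes, 11 were called higher in the PC and 1 in the spleen (median 1.04). Over all genes, 15.6% and 6.46% were called. The counts of the list were 12 and 2 without spleen replicate 2. Itgb7, the integrin chain that pairs with Itga4 to bind gut vessels, was at 212, 256, 233 and 226 CPM in the PC and 45.7, 99.1, 55.6 and 42.1 CPM in the spleen (log2 fold change 1.93, standard error 0.25, adjusted p 0.000121), and at 116, 115 and 96.5 CPM in culture. Itgb1 was at 723, 801, 699 and 694 CPM in the PC and 286, 362, 261 and 270.3 CPM in the spleen (log2 fold change 1.30, standard error 0.11, adjusted p 1.15e-05). Itgb2 was at 334, 441, 358 and 381 CPM in the PC and 73.5, 69.9, 66.1 and 64.5 CPM in the spleen (log2 fold change 2.46, standard error 0.10, adjusted p 2.01e-07). Both are integrin chains that macrophages express too. The chains and Itga4 (1.04) lay higher in every PC library than in any spleen, although Itga4 fell under the limit without PC replicate 1 or spleen replicate 3 (0.97 and 0.89).

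Among chemoattractant receptors, Cxcr5, which guides B cells to follicles, was at 244, 249, 309 and 311 CPM in the PC and 109, 116, 93.5 and 116 CPM in the spleen (log2 fold change 1.35, standard error 0.11, adjusted p 9.16e-06). Gpr183, the oxysterol receptor of the same route, was at 42.5, 30.2, 32.6 and 32.4 CPM in the PC and 16, 8.86, 11.2 and 9.06 CPM in the spleen (log2 fold change 1.6, standard error 0.20, adjusted p 0.000101). Cxcr3 (2.79) and S1pr1, the receptor by which lymphocytes leave tissue (1.25), were called higher in the PC. Cxcr4, which retains cells in marrow and lymphoid stroma, was lower in the PC and did not reach the limit, at 212, 253, 211 and 257 CPM in the PC and 366, 460.1, 489 and 494 CPM in the spleen (log2 fold change -0.96, standard error 0.11, adjusted p 7.26e-05), but it did without PC replicate 4 or spleen replicate 1 (-1.01 and -1.05). Ccr7 was also short of it (-0.65, adjusted p 0.00533). Itgax, the integrin chain CD11c, was the 1 gene called higher in the spleen (-1.27, adjusted p 0.0067), a call lost without spleen replicate 1 (-0.99).

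Of 30 chemokines and cytokines, 14 were called higher in the PC and 4 in the spleen (median 0.23). Over all genes, 15.6% and 6.46% were called. The list had 6 calls in the spleen without spleen replicate 2. Ccl6 was at 1117, 1528, 1437 and 1415 CPM in the PC and 13.9, 7.17, 15.1 and 7.23 CPM in the spleen (log2 fold change 6.98, standard error 0.31, adjusted p 2.82e-07). Ccl9 was at 507, 561, 700.5 and 622 CPM in the PC and 5.02, 1.89, 3.21 and 2.36 CPM in the spleen (log2 fold change 7.57, standard error 0.30, adjusted p 1.92e-07). Both are chemokines of myeloid cells and were below 1 CPM in every culture. Cxcl13, which attracts B cells to body cavities and follicles, was at 17.0, 32.3, 14.7 and 34.0 CPM in the PC and 0.689, 0.158, 0.0397 and 0.457 CPM in the spleen (log2 fold change 6.15, standard error 0.53, adjusted p 1.06e-05), and Tnfsf13, the B-cell survival factor APRIL, had a log2 fold change of 4.84. These 4 were above the spleens in every PC library. Toward the spleen, Cxcl10, a chemokine induced by interferon, was at 1.03, 1.83, 1.06 and 0.514 CPM in the PC and 13.6, 6.42, 9.32 and 5.82 CPM in the spleen (log2 fold change -2.99, standard error 0.39, adjusted p 0.000139). Il10, an inhibitory cytokine, was at 38.1, 23.5, 19.6 and 20.7 CPM in the PC and 78.5, 37.4, 73.4 and 51.6 CPM in the spleen (log2 fold change -1.24, standard error 0.27, adjusted p 0.0032), with PC replicate 1 above spleen replicate 2. Il1b, an inflammatory cytokine, had a log2 fold change of -1.26, which was -0.99 without spleen replicate 1.

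Of 24 genes of the interferon response, 11 were called higher in the PC and 1, Cxcl10, in the spleen (median 0.79), against 15.6% and 6.46% of all genes. Oas1a, a sensor of double-stranded RNA, was at 13.1, 25.5, 18 and 16.9 CPM in the PC and 2.22, 1.30, 2.30 and 1.48 CPM in the spleen (log2 fold change 3.32, standard error 0.26, adjusted p 5.8e-06) and at 0 counts in the cultures. Irf7, the amplifier of type I interferon, was at 57.5, 97.4, 71.1 and 70.3 CPM in the PC and 14.7, 17.7, 16.9 and 10.9 CPM in the spleen (log2 fold change 2.29, standard error 0.19, adjusted p 8.71e-06). Zbp1, a nucleic acid sensor (3.10), and Gbp2, a GTPase (1.59), were highest in PC replicate 2. Of 15 immune checkpoint genes, 7 were called higher in the PC and 3 in the spleen (median 0.49), against 15.6% and 6.46% of all genes. Vsir, which encodes VISTA, was at 112, 148, 128 and 139 CPM in the PC and 16.8, 15, 14.9 and 11.9 CPM in the spleen (log2 fold change 3.16, standard error 0.13, adjusted p 2.16e-07). Cd200, an inhibitory ligand, was at 103, 71.4, 74.5 and 81.3 CPM in the PC and 16.8, 15.2, 17.1 and 16.2 CPM in the spleen (log2 fold change 2.33, standard error 0.13, adjusted p 8.54e-07). Pdcd1lg2, the ligand PD-L2, was at 28.0, 28.2, 20.3 and 21.4 CPM in the PC and 4.06, 4.53, 4.20 and 4.76 CPM in the spleen (log2 fold change 2.47, standard error 0.14, adjusted p 1.12e-06). Among members chosen after their values were seen, Lag3 was higher in the PC (1.28) and Havcr2, the receptor TIM-3, in the spleen (-1.60), although Havcr2 missed the test in the fit of 22 samples (adjusted p 0.0836).

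Lipid handling followed the macrophage lists in direction. Of 14 genes of lipid uptake and efflux, 9 were called higher in the PC and 0 in the spleen (median 1.46), against 15.6% and 6.46% of all genes. Lpl, lipoprotein lipase, was at 126, 81.7, 166 and 117 CPM in the PC and 2.22, 0.670, 1.35 and 1.45 CPM in the spleen (log2 fold change 6.42, standard error 0.34, adjusted p 8.25e-07). Abca1, the cholesterol exporter, was at 101, 106, 88.7 and 80.1 CPM in the PC and 4.44, 2.44, 2.5 and 4.11 CPM in the spleen (log2 fold change 4.79, standard error 0.21, adjusted p 3.03e-07). Both were below 1 CPM in culture. Pltp (3.96), Plin2, which coats lipid droplets (2.45), Lipa (1.40) and Npc2 (1.27), both of lysosomal cholesterol release, were higher too. Of 25 genes of sterol and fatty acid synthesis, 2 were called higher in the PC and 1 in the spleen (median -0.20). These counts stand against 15.6% and 6.46% of all genes, and the fit of 22 samples called 1 and 0. Scd1, the desaturase that makes oleic acid, was at 2811, 2434, 2350.3 and 2528 CPM in the PC and 429, 901, 482 and 515 CPM in the spleen (log2 fold change 2.12, standard error 0.22, adjusted p 3.33e-05) and at 842, 962 and 848 CPM in culture, and Idi1 was higher in the spleen (-1.11).

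Of 8 retinoid genes tested, 6 were called higher in the PC (median 1.52), against 15.6% of all genes. Rarb, a receptor that retinoic acid induces, was at 11.9, 11.3, 11.0 and 15.8 CPM in the PC and 0.115, 0.158, 0.0397 and 0.152 CPM in the spleen (log2 fold change 6.68, standard error 0.29, adjusted p 2.74e-07) and at 0 counts in culture. Tgm2, a transglutaminase that retinoic acid also induces, was at 61.2, 122, 66.1 and 58.5 CPM in the PC and 16.3, 4.29, 8.29 and 6.28 CPM in the spleen (log2 fold change 3.12, standard error 0.41, adjusted p 0.000133). The receptors Rara (1.10), Rarg (1.21) and Rxra (1.84) differed less. Of 6 metallothionein and zinc genes, 1 was called higher in the PC, 2 without PC replicate 2, while 15.6% of all genes were called there. The called gene was Mt2, at 38.7, 47.6, 53.5 and 38.1 CPM in the PC and 4.52, 4.14, 2.42 and 5.02 CPM in the spleen (log2 fold change 3.46, standard error 0.22, adjusted p 1.74e-06). Its neighbour Mt1 was at 77.9, 69.0, 94.4 and 85.1 CPM in the PC and 107, 103, 102 and 113 CPM in the spleen (log2 fold change -0.39, standard error 0.10, adjusted p 0.00884). A list of 5 sex-linked genes had no row in the table.

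The libraries of the NFKBIE-ko cultures did not enter the site contrast. They hold the NFKBIE-ko line after 2 weeks without a host, from the spleens of 3 other mice. Of the 1976 genes called higher in the PC, 879 (44.5%) were below 1 CPM in each of the 3 cultures and 973 (49.2%) reached 1 CPM in each. Of the 816 called higher in the spleen, 173 (21.2%) were below and 604 (74.0%) reached it. Over all genes tested, 13.2% were below 1 CPM in each culture and 83.3% reached it. A gene near 0 at 1 site passed the filter on low counts only through the other site. The shares of called genes below 1 CPM in culture are therefore partly set by the filter and the limit on the fold, and are not independent support. Among the lists, 0 of 13 neutrophil genes and 2 of 16 markers of large peritoneal macrophages reached 1 CPM in all cultures, against 26 of 26 cell cycle genes, 18 of 19 B-lineage genes and 31 of 32 genes of glycolysis and hypoxia. A transcript found in culture can come from host cells as well, so this split describes where a gene could be transcribed and does not assign its difference to a cell.

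**Figure D5:**
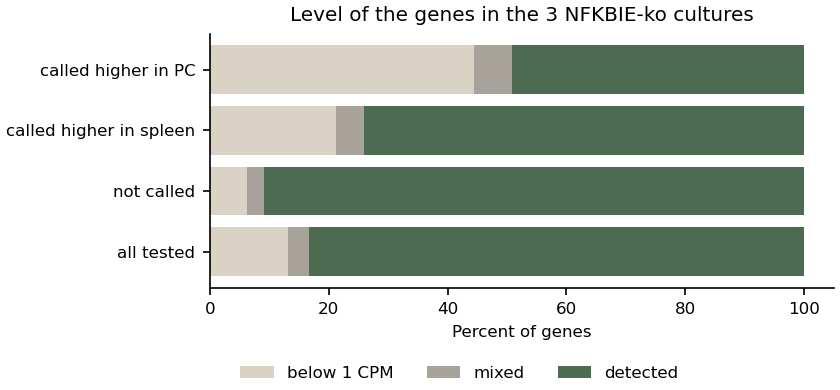
Each bar divides a set of genes by their level in the 3 NFKBIE-ko cultures, as percent of the genes (below 1 CPM in all 3, at least 1 CPM in all 3, or mixed). Genes called higher in the PC were below 1 CPM in 44.5% of cases, those called higher in the spleen in 21.2%.

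Whether a site difference was particular to the NFKBIE-ko leukemia was tested as the difference between the genotypes in a fit of the 16 in vivo libraries. Of 13137 genes, 2.69% were called. A total of 258 (1.96%) had a larger PC minus spleen value in NFKBIE-ko and 96 (0.731%) a smaller one. The library labelled NFKBIE-wt spleen replicate 4 stood apart from its group. Fosb was at 993, 1197, 1179.5 and 2.17 CPM in the 4 NFKBIE-wt spleens, C1qa at 4.98, 3.24, 6.24 and 0 CPM and S100a8 at 43.3, 114, 14.9 and 0 CPM, with replicate 4 the lowest in each. Among the NFKBIE-wt spleens the lowest sum of the neutrophil list was 0.193 CPM and that of the immediate-early list 1345 CPM. The NFKBIE-ko cultures, which had no host, spanned 0.154 to 0.563 CPM and 1301 to 1434 CPM. Whether the label of NFKBIE-wt spleen replicate 4 is right was not tested. Without this library, 416 genes were above 0 and 172 below, so genotype differences of single genes are given both ways. Without NFKBIE-ko spleen replicate 2 the numbers were 319 and 146. Among protein-coding genes with a mean of at least 5 CPM in 1 of the 4 groups, the largest called effects above 0 were in Slc25a34, Cd93, Dapk2, Thbd and Matk, and those below 0 in Retnlg, Cxcr2, Ppp1r15a, Hfm1 and Vcam1, and all 10 were also called without that library.

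Cd93, a receptor of immature B cells and of endothelium, was at 69.1, 86.2, 53.8 and 63.2 CPM in the PC and 3.91, 6.18, 2.89 and 3.23 CPM in the spleen in NFKBIE-ko and averaged 39.5 CPM in the NFKBIE-wt PC and 82.4 CPM in the NFKBIE-wt spleen (difference 5.09, standard error 0.62, adjusted p 0.00102, and 4.17, adjusted p 3.42e-06 without the library). The NFKBIE-wt spleen means given here include replicate 4. Since the difference of Cd93 fell to 4.17 without it, its mean of 82.4 CPM depends on that library. Thbd, thrombomodulin, was at 16, 20.8, 18.4 and 15.9 CPM in the PC and 0.881, 0.433, 0.674 and 0.495 CPM in the spleen in NFKBIE-ko and averaged 7.77 CPM in the NFKBIE-wt PC and 6.89 CPM in the NFKBIE-wt spleen (difference 4.62, standard error 0.50, adjusted p 0.000419, and 4.13, adjusted p 4.72e-05 without it). Ppp1r15a, which ends the integrated stress response, was at 68.8, 24.8, 34.6 and 31.9 CPM in the PC and 424, 477, 285 and 297 CPM in the spleen in NFKBIE-ko and averaged 217 CPM in the NFKBIE-wt PC and 189 CPM in the NFKBIE-wt spleen (difference -3.44, standard error 0.85, adjusted p 0.0293, and -3.12, adjusted p 0.00904 without it). Fosb was not called in the fit of all 16 libraries (difference -5.65, standard error 1.72, adjusted p 0.062) and was called without that library (-5.29, adjusted p 0.0268). Saa3 (difference 1.05, standard error 1.00, adjusted p 0.58, and 1.41, adjusted p 0.197 without it) and Ms4a1 (difference 0.45, standard error 0.36, adjusted p 0.495, and 0.05, adjusted p 0.935) did not pass the test, and Cdc6 passed it with a difference under the limit (difference -0.62, standard error 0.15, adjusted p 0.0268, and -0.70, adjusted p 0.0154), which does not show that the sites acted alike in both genotypes.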

How the data were processed

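RNA of 22 samples was sequenced, 4 from each site and genotype and 3 cultures of each. The authors quantified reads against GRCm39 with Salmon 1.8 and deposited estimated counts for 62492 transcripts, each above 0 in at least 5 samples (total 24036763 to 26573453 in the 8 libraries used). Salmon divides reads among similar transcripts, and 69.5% of the values were not whole. The estimated counts of 62147 transcripts matched to genes were summed over 17022 genes and rounded, and 0.619% of counts were unmatched. Groups were taken from titles.

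Sites were compared with edgeR 4.0.16 in R 4.3.3 (filterByExpr with its minimum count of 10, TMM, robust quasi-likelihood test, Benjamini-Hochberg adjustment), and a call needed adjusted p under 0.05 together with a fold above 1 on the log2 scale. Nothing states that replicates were separate mice, so p-values measure the spread between these samples. Intervals cover counting error only. Scripts were tested on simulated data. Alternatives were RLE and upper quartile factors, no filter, a minimum count of 50, DESeq2 1.42.0, a fit of 22 samples, a replicate block, single transcripts and each library left out. Genotype differences of single genes were also fitted with NFKBIE-wt spleen replicate 4 left out.

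The members and the gene lists were chosen with earlier results of these data known. Genes were named by a rule: Nfkbie, the 12 largest calls in each direction with at least 5 CPM and no overlap, up to 5 called and 2 uncalled members of highest level per list, all members of the NF-κB family and homing lists, and the 5 largest genotype differences in each direction. Gata6, Spic, C1qa, Csf1r, Adgre1, Cd3e, Foxp3, Lag3, Havcr2, Egr1, Dusp1, Atf3, Cd69, Hspa1b, Oas1a, Cdc6, Ccl22, Il1b, Tnfsf13, Egln3, Bnip3, Slc16a3, Vegfa and Abca1 were added after their values were seen. Results of some genes that the rule names are not reported here.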

Additional observations from a re-analysis of the deposited data

Results flagged for a closer look

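In 446 groups of 4 libraries, formed by the named genes and lists at each site, 1 library lay far enough from the other 3 for its gap, as a share of the range, to pass the 95% limit of Dixon in 38, and chance passes this limit in about 1 of 20 groups. That rate holds for normally distributed values and not for groups of few counts. Over all spleens Nxph4 had 1 count, Fam20a 3, Ltc4s 6 and Serpinb2 8. Their flags below, which are among the 38, follow from these few counts and carry no weight. In NFKBIE-ko PC replicate 1, Rnf32 was highest at 3.53 CPM (gap 0.932 of the range), Tnfaip3 was highest at 156 CPM (gap 0.961 of the range), Egr1 was highest at 91.9 CPM (gap 0.878 of the range) and the summed B-1 cell list was highest at 2169 CPM (gap 0.886 of the range). In NFKBIE-ko PC replicate 2, Trf was highest at 152 CPM (gap 0.861 of the range), Gbp2 was highest at 310 CPM (gap 0.865 of the range), Mcm6 was highest at 237 CPM (gap 0.905 of the range), Tgm2 was highest at 122 CPM (gap 0.879 of the range), the summed MHC class II list was highest at 5206 CPM (gap 0.872 of the range) and the summed stress response list was highest at 2032 CPM (gap 0.865 of the range). In NFKBIE-ko PC replicate 3, Dab2 was highest at 54.9 CPM (gap 0.948 of the range), Fn1 was lowest at 529 CPM (gap 0.987 of the range), Prg4 was lowest at 23 CPM (gap 0.842 of the range), Mrc1 was highest at 120 CPM (gap 0.860 of the range) and the summed metallothionein and zinc list was highest at 218 CPM (gap 0.871 of the range). In NFKBIE-ko PC replicate 4, Vegfa was lowest at 16.7 CPM (gap 0.935 of the range). In NFKBIE-ko spleen replicate 1, Serpinb2 was highest at 0.268 CPM (gap 0.852 of the range), Ltc4s was highest at 0.115 CPM (gap 0.979 of the range), Fam20a was highest at 0.115 CPM (gap 1.0 of the range), Fn1 was highest at 11.2 CPM (gap 0.832 of the range), Dusp1 was highest at 372 CPM (gap 0.838 of the range), Cd69 was highest at 327 CPM (gap 0.855 of the range) and Hspa1b was highest at 106 CPM (gap 0.894 of the range). In NFKBIE-ko spleen replicate 2, Nxph4 was highest at 0.0394 CPM (gap 1.0 of the range), Arg1 was lowest at 1.85 CPM (gap 0.960 of the range), Ccr9 was highest at 80.8 CPM (gap 0.899 of the range), Cd2 was highest at 139 CPM (gap 0.853 of the range), Bank1 was highest at 63.2 CPM (gap 0.915 of the range), Nfkb2 was lowest at 269 CPM (gap 0.884 of the range), Ddit3 was highest at 51.2 CPM (gap 0.841 of the range), S1pr1 was highest at 129 CPM (gap 0.978 of the range), the summed dendritic cell list was highest at 91.5 CPM (gap 0.911 of the range) and the summed glycolysis and hypoxia list was lowest at 7578 CPM (gap 0.914 of the range). In NFKBIE-ko spleen replicate 3, Krt18 was highest at 1.43 CPM (gap 0.855 of the range), Gzmb was highest at 52.9 CPM (gap 0.856 of the range), Cd8a was highest at 10.5 CPM (gap 0.904 of the range), H2-T23 was highest at 115 CPM (gap 0.911 of the range) and the summed cytotoxic and NK cell list was highest at 174 CPM (gap 0.926 of the range).

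The PC minus spleen difference of 34 named genes differed between the genotypes by the same test and limits as above, and 30 of them stayed called when NFKBIE-wt spleen replicate 4 was left out, the exceptions being Krt18, Ccr9, Il7r and Atf4. The log2 difference, NFKBIE-ko minus NFKBIE-wt, is given with and then without that library. It was above 0 in Slc25a34 (5.48 and 5.77), Cd93 (5.09 and 4.17), Dapk2 (4.86 and 3.23), Thbd (4.62 and 4.13), Matk (4.51 and 4.77), Vwf (4.37 and 4.36), Abca1 (3.88 and 4.21), Egln3 (3.63 and 2.77), Arg1 (3.43 and 3.72), Krt8 (3.13 and 3.35), Mt2 (2.73 and 2.62), Batf3 (2.52 and 2.25), Jchain (2.25 and 2.30), Krt18 (2.24 and 1.77), Ccr9 (2.22 and 1.73), Cxcr3 (2.17 and 2.36), Pdcd1lg2 (2.08 and 2.04), Ndrg1 (1.65 and 1.66), Itgb7 (1.62 and 1.47), Vsir (1.57 and 1.26) and Itgb2 (1.21 and 1.17). It was below 0 in Retnlg (-4.98 and -4.62), Cxcr2 (-4.16 and -3.80), Ear2 (-3.94 and -3.58), Ppp1r15a (-3.44 and -3.12), Hfm1 (-3.34 and -3.06), Vcam1 (-2.92 and -2.69), Gadd45b (-2.90 and -2.61), A930003A15Rik (-2.02 and -2.13), Lag3 (-1.32 and -1.23), Hspa5 (-1.24 and -1.20), Nfkbid (-1.11 and -1.20), Il7r (-1.09 and -0.92) and Atf4 (-1.06 and -0.93). Another 13 named genes were called when that library was left out, with values then of -1.05 for Nfkbie, -5.29 for Fosb, -3.68 for Fos, -3.56 for Ngp, -2.91 for Jun, 1.82 for Fn1, 1.55 for Mrc1, 1.35 for Itgam, -3.15 for S100a8, -3.65 for S100a9, -1.71 for Dusp1, -1.15 for Dnajb9 and -4.02 for Ccl22. No explanation of these values was tested.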

How the results depend on the processing

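All 2792 calls kept their direction wherever they were tested under other size factors, filters, DESeq2, the fit of 22 samples, the replicate block and each library left out, and the number of calls stayed between 2143 and 3363. A test per transcript called 4825 (3149 higher in the PC and 1676 in the spleen), and without the limit on the fold 7546 genes passed (3743 and 3803). The number of genotype differences, 354, was 624 with DESeq2 and 190 with the replicate block, and lay between 212 (without NFKBIE-ko PC replicate 2) and 588 (without NFKBIE-wt spleen replicate 4) when 1 library was left out, with 224 without NFKBIE-wt PC replicate 2; the cause was not tested. The mean correlation of spleen replicate 2 with the other spleens was 0.7591 over the 500 most variable genes, against 0.7867 to 0.8108 for the others. Same-numbered PC and spleen samples share only a number. Their deviations correlated at 0.1005, -0.045, 0.0967 and 0.1469, not every sample correlated best with its own number, and the replicate block called 2997 genes. Of 189 named genes tested, 158 kept their side of the threshold under every alternative and 31 did not. The fit of all 22 samples ended the most of these calls, 19, those of Hba-a1, Hbb-bs, Chil3, S100a8, S100a9, Trbc2, Cd3e, Tcf7, Gzmb, Cd8a, Eomes, Havcr2, Dusp1, Ciita, Itgax, Il1b, Idi1, Cxcr2 and Hfm1, and every other setting ended at most 6. The median of the chemokine and cytokine list was -0.05 without PC replicate 3 and that of the class II list -0.02 without PC replicate 2, each on the other side of 0. Depth limits genes near 0 in 1 site, where a ratio rests on few counts.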
